A study of Mus musculus with 4 samples.

Results

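The mitochondrial protein import machinery was followed here through 34 gene symbols, held in 35 table entries, out of 24441 symbols measured in Langerhans cells, the dendritic-like immune cells of the epidermis. They were taken by gene name: every Tomm and Timm gene with a number, together with Samm50, Mtx1, Mtx2, Pam16, Dnajc19, Grpel1, Chchd4 and Gfer. The cells came from 4-week-old mice of 2 genotypes, wild type (WT) and CD11cCre Tfam fl/fl (Tfam cKO), with 2 RNA-seq libraries of each. In the second genotype a Cre recombinase under the CD11c (Itgax) promoter, active in dendritic cells and Langerhans cells, deletes floxed Tfam, the factor that packages and transcribes mitochondrial DNA. The labels name no other allele or treatment, do not say whether the WT mice carried Cre or the floxed allele, and do not say how many mice gave each library. The p-values therefore measure the spread between these libraries, whose sources the labels do not tell apart. Levels are FPKM, fragments scaled to transcript length and library size, so they can be set side by side between genes.

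Nearly all mitochondrial proteins are made in the cytosol and must be imported. The translocase of the outer membrane (TOM) is their common entry: the receptors Tomm20, Tomm22 and Tomm70a bind the incoming chain and the Tomm40 channel passes it on. From there the sorting and assembly machinery (SAM) inserts beta-barrel proteins into the outer membrane, the small TIM chaperones escort hydrophobic chains across the intermembrane space to TIM22, the MIA40 relay (Chchd4 and Gfer) oxidises cysteine-rich proteins in that space, and TIM23 with its Hspa9 motor pulls proteins with a presequence into the matrix. Tfam itself is a matrix protein that arrives by this last route.

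The deleted gene was checked first. Tfam had 3.17 FPKM in WT 1, the first WT library, 1.61 in WT 2, and 1.65 and 1.53 in the Tfam cKO libraries 1 and 2, a log2 difference of -0.35 ± 0.25 (SE) with a limma adjusted p of 0.900. WT 2 therefore stood with the libraries labelled Tfam cKO, and since a value covers the whole gene model, it does not resolve the floxed exons. Defining markers of the labelled cell type were present: Cd207, which encodes the Langerhans cell lectin langerin, was between 1374 and 2098 FPKM, and Epcam between 179.6 and 199.6. The 10 Langerhans cell markers listed together took 5.81% to 7.21% of all FPKM. The largest parts were those of Cd74, at 9264 to 12340 FPKM, and H2-Ab1, at 5387 to 7053. Of the 10, Cd1d1 alone was under 1 FPKM, at 0.046 to 0.207. Of the markers of other epidermal cells, 9 of 9 keratinocyte genes were detected, at 3.37% and 2.44% of all FPKM in WT 1 and WT 2 against 3.02% and 2.86% in Tfam cKO. Krt5, at 3003 to 4598 FPKM, and Krt14, at 2362 to 3587, were above Cd207 in every library, and the 6 T cell markers listed summed to between 150.1 and 239.3 FPKM. Fibroblast, melanocyte, endothelial and neutrophil markers each summed, by cell type, to at most 5.4 FPKM in any library, and the mast cell markers Cpa3, Mcpt4 and Tpsb2 were listed at 0 in all. Transcripts of the Y-linked genes Ddx3y, Eif2s3y, Kdm5d and Uty were at 0 in the first library of both genotypes and present in the second. In WT 2 and Tfam cKO 2, Ddx3y was at 28.2 and 9.34 FPKM and Eif2s3y at 26.1 and 10.6. The second library of each genotype thus held RNA of male cells, and the first showed none of these transcripts. This sex difference lies within the spread behind the p-values, and leaving out a library unbalances it between the genotypes. Relative to WT 1, the sequencing depth recovered from the tables was 1.365 for WT 2, and 0.884 and 1.56 for the first and second Tfam cKO library.

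As groups, Tomm, Timm and the other import genes each had a median level above that of all genes in every library, and no import gene differed between the genotypes past the test's threshold. Of the 34 symbols, 31 reached a mean of 1 FPKM and were tested: 9 Tomm, 14 Timm and the 8 others. The untested 3 were Tomm20l, Timm8a2 and Tomm6os, an antisense RNA that the naming rule took in. Means of the 31 tested genes ran from 3.22 FPKM for Pam16 to 55.4 for Tomm22. Together these 31 took 0.139% and 0.138% of all FPKM in WT against 0.140% and 0.145% in Tfam cKO. None of the 31 passed an adjusted p of 0.05 in limma's test on log2(FPKM + 1), against 0.0183% of the 10910 genes tested called higher and 0% called lower. At an unadjusted p under 0.05 there was 1 of 31, Timm23, where 6.21% of all genes stood.

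Some genes nevertheless had the whole Tfam cKO pair on the same side of the WT pair. The pair lay above in 7 of 31 import genes (Tomm40, Timm13, Timm22, Timm23, Timm17b, Timm50 and Grpel1), where 25.4% of all genes did so, and below in 1 of 31 (Dnajc19), where 9.75% of all genes did so. After each library was rescaled to the same total, the higher genes were the 4 named Timm13, Timm23, Timm50 and Grpel1 (14.3% of all genes) and the lower genes the 3 named Tomm7, Timm21 and Dnajc19 (19.8% of all genes). The median log2 fold change was 0.14 over the import genes and 0.07 over all genes. With equal totals the medians were 0.03 and -0.04, a shift of all genes that carried the import genes with it. The difference was positive in 25 of 31 import genes before this rescaling and in 17 of 31 after it, where the shares of all genes were 65.2% and 43.2%. Leaving out WT 1, WT 2, Tfam cKO 1 or Tfam cKO 2 in turn left 18, 12, 14 and 15 import genes with Tfam cKO above WT (58.1%, 38.7%, 45.2% and 48.4%), where 55.8%, 37.3%, 40.7% and 41.9% of all genes stood. These higher shares were close to those of all genes, and 3 libraries separate more easily than 4. In the same order, Tfam cKO was below WT in 16.1%, 16.1%, 3.23% and 25.8% of the import genes. Of all genes, 20.7%, 32%, 19% and 23% were below.

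**Figure D1:**
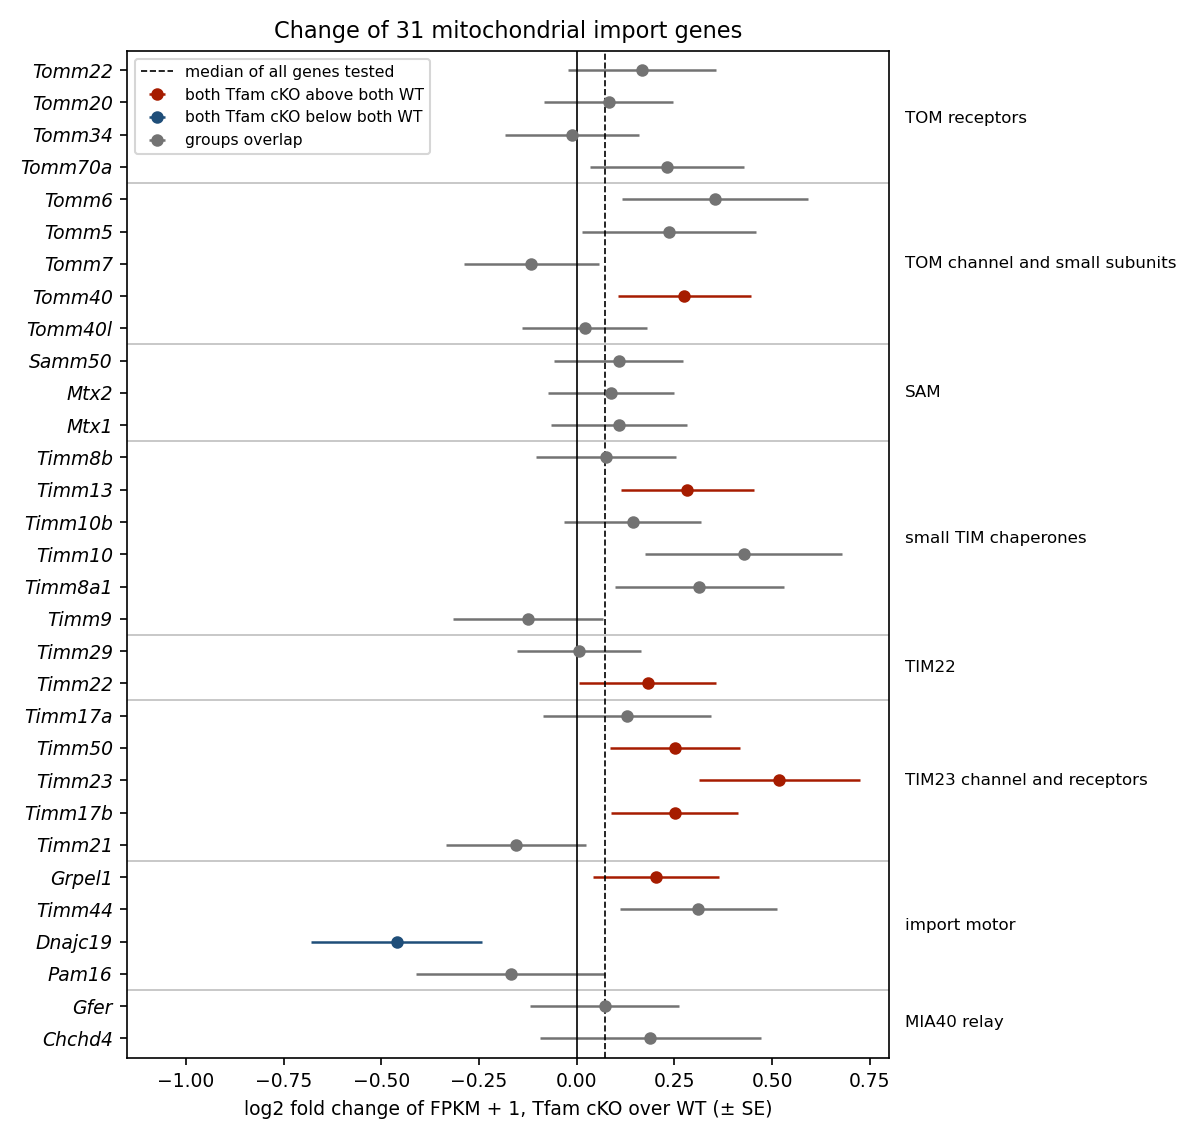
Log2 fold change of FPKM + 1 (Tfam cKO over WT) for the 31 import genes tested, grouped by role, as points with the standard error as bars. Red marks the 7 genes whose Tfam cKO pair lay wholly above the WT pair, blue the 1 gene with the pair below, and the dashed line the median of all genes tested, 0.07.

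The WT libraries themselves differed. WT 2 held the lowest of the 4 values in 15 of 31 import genes (48.4%), where it did so in 46% of all genes, and Tfam cKO 2 held the lowest in 0 of 31, where it did so in 13.6% of all genes. With equal totals WT 2 was lowest in 10 of 31 (32.3%, against 26.7% of all genes) and Tfam cKO 2 in 3 of 31 (9.68%, against 17.2%). WT 2 also had the smallest keratinocyte share, as given above. The part of that share in the import values was not tested. Among the 30 import genes with a single locus, the 95% intervals of the 2 WT libraries were apart in 7 (Tomm22, Tomm70a, Tomm5, Tomm6, Timm23, Timm44 and Chchd4), and those of the 2 Tfam cKO libraries in 6 (Tomm20, Tomm6, Timm10, Timm17a, Timm44 and Gfer). As in any bulk sample, fewer cells of a type and less RNA per cell cannot be told apart.

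**Figure D2:**
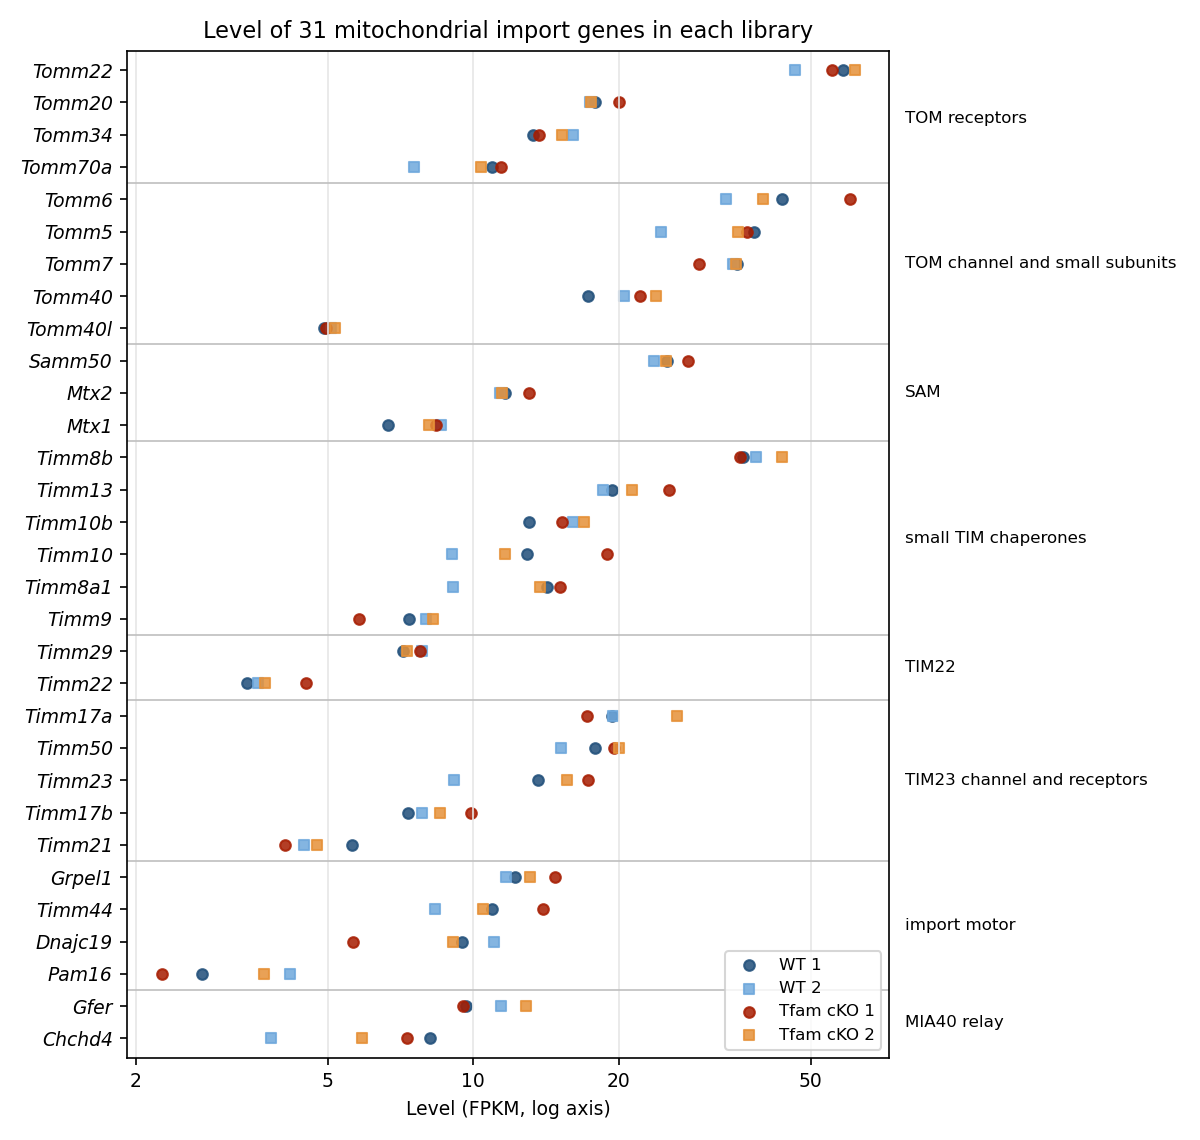
FPKM of the 31 import genes on a log axis, grouped by role, with 1 point for each of the 4 libraries. Points of the same gene lie close together, and the spread between genes, from Pam16 at 2.27 to Tomm22 at 61.7, is far wider than that between libraries.

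Upstream sequence of 31 of the 34 symbols was available from RefSeq (GRCm38.p6), as 33 windows of 250 bases ending at the base before the gene's start. The 4 windows printed are those of the import gene at the highest level (Tomm22), of the 2 with the largest positive differences (Timm23 and Timm10) and of the 1 with the largest negative difference (Dnajc19). Capitals mark matches to CCGGAAG or its reverse complement CTTCCGG, the core of the site for GABPA, an ETS-family factor long known as an activator of nuclear genes for mitochondrial proteins.
Tomm22, chr15:79670618-79670867, plus strand: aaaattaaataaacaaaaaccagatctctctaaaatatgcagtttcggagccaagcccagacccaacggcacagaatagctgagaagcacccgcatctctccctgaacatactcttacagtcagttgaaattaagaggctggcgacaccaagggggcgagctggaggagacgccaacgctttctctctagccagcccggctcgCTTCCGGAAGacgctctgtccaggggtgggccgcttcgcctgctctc
Timm23, chr14:32201892-32202141, minus strand: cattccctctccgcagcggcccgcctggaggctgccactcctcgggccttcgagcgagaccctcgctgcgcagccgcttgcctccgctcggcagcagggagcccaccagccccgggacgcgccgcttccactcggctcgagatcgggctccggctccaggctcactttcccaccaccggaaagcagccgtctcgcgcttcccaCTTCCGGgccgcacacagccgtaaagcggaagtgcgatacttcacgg
Timm10, chr2:84826771-84827020, plus strand: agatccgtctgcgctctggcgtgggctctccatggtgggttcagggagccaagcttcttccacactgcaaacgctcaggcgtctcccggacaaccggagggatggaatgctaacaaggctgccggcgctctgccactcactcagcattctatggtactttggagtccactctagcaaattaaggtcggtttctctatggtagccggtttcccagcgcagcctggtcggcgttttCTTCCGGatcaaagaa
Dnajc19, chr3:34081355-34081604, minus strand: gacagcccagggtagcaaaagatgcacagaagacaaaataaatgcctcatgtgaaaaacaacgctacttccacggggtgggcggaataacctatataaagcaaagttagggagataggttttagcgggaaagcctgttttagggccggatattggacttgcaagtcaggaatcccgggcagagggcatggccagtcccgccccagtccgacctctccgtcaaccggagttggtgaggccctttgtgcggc
Counted from the gene's start, the matches lie at positions -47 to -41 and, on the other strand and overlapping the first, -44 to -38 in Tomm22, at -47 to -41 in Timm23 and at -16 to -10 in Timm10. The Dnajc19 window holds none.

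On either strand this motif was in 12 of 33 import windows (36.4%), belonging to 11 genes, and in 6.91% of all 32851 RefSeq windows. These windows were not filtered by level, so they include genes outside the 10910 tested. Import genes were not compared with expressed genes alone. The 11 were Tomm22, Tomm34, Tomm70a, Mtx1, Mtx2, Timm8a2, Timm8b, Timm10, Timm23, Timm29 and Grpel1, so Timm23 and Grpel1 are the only ones that also belong to the 7 genes with a higher Tfam cKO pair. NRF1, another activator of nuclear mitochondrial genes, was searched as CGCATGCG, found in 1 import window (3.03%, against 1.55% of all), and as its longer palindrome with a free base, found in 3 (9.09%, against 3.74%). The E-box CACGTG was in 4 windows (12.1%, against 6.02%). Neither TGATGNAA, a composite element bound by C/EBP and ATF factors (3.45% of all windows), nor the YY1 core AAGATGGC (1.56%) was in any import window. Both strands were searched for every motif, and a match describes letters only.

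Of the TOM receptors, Tomm22 stood highest, as it did among all import genes. Tomm22, the central receptor that also holds the channel units together, had 58.3 and 46.3 FPKM in WT 1 and WT 2 against 55.4 and 61.7 in Tfam cKO 1 and 2. Only WT 2 stood low, and the groups overlapped (log2 fold change 0.17 ± 0.19, adjusted p = 0.950). Tomm20, the receptor for presequences, was nearly flat, with 17.9 and 17.5 FPKM in WT against 20.1 and 17.5 in Tfam cKO. Tomm70a, the receptor that takes carrier proteins from cytosolic Hsp70 and Hsp90, had 10.9 and 7.55 FPKM in WT against 11.4 and 10.4 in Tfam cKO, again with WT 2 alone at the bottom. Tomm34, a cytosolic co-chaperone for these precursors, had 13.3 and 16.1 FPKM in WT against 13.7 and 15.3 in Tfam cKO. The differences of these receptors lay between -0.01 and 0.23 on the log2 scale, with adjusted p of 0.923 or more. Tomm20l, a paralog of Tomm20 known from the testis, was listed at 0 in all 4 libraries.

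The channel gene Tomm40 had 17.3 and 20.5 FPKM in WT against 22.1 and 23.9 in Tfam cKO. Both Tfam cKO values were above both WT values, by 0.28 ± 0.17 on the log2 scale (adjusted p = 0.882), and with equal totals the groups overlapped. Its paralog Tomm40l stayed at 4.91 and 5.07 FPKM in WT against 4.96 and 5.18 in Tfam cKO, the tightest set of 4 values among these subunits. The ratio of Tomm40 to Tomm40l was 3.52 and 4.04 in WT against 4.46 and 4.61 in Tfam cKO. The small subunits that stabilise or loosen the channel were among the most abundant import transcripts. Tomm5 had 38.1 and 24.5 FPKM in WT against 36.9 and 35.4 in Tfam cKO, with WT 2 alone low. Tomm6 had 43.7 and 33.3 FPKM in WT against 60.4 and 39.8 in Tfam cKO, the highest value being that of Tfam cKO 1 (log2 fold change 0.35 ± 0.24, adjusted p = 0.896). Without that library the Tomm6 value was 0.06. Tomm7 had 35.1 and 34.6 FPKM in WT against 29.4 and 35.0 in Tfam cKO, with Tfam cKO 1 low. Tomm6 shares 778 bases of its gene model with the antisense RNA Tomm6os, which was at most 0.139 FPKM, and without a statement on strand their reads cannot be told apart.

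The 3 SAM genes, which build beta-barrels such as Tomm40 itself into the outer membrane, were nearly flat. Samm50, the SAM channel, had 25.2 and 23.7 FPKM in WT against 27.8 and 25.1 in Tfam cKO. The metaxins Mtx1 and Mtx2, which cap that channel on the cytosolic side, had 6.65 and 8.59 FPKM and 11.6 and 11.3 FPKM in WT, and 8.37 and 8.09 FPKM and 13.1 and 11.5 FPKM in Tfam cKO. All 3 overlapped between the groups, their differences were between 0.09 and 0.11 on the log2 scale, and with equal totals these were between -0.03 and -0.001. Mtx3, a further metaxin outside the chosen genes, had between 1.33 and 1.79 FPKM.

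The small TIM chaperones work as rings of 6 in the intermembrane space, Timm9 with Timm10 and Timm8 with Timm13. Timm10 had the widest difference of the group, 12.9 and 9.03 FPKM in WT against 18.9 and 11.6 in Tfam cKO (log2 fold change 0.43 ± 0.25, adjusted p = 0.873). The groups overlapped, and without Tfam cKO 1 the log2 fold change was 0.10. Its partner Timm9 had 7.35 and 7.96 FPKM in WT against 5.79 and 8.27 in Tfam cKO, so that Tfam cKO 1 was highest of the 4 libraries in Timm10 and lowest in Timm9. The ratio of Timm10 to Timm9 was accordingly 3.27 in Tfam cKO 1 and 1.76, 1.13 and 1.41 in WT 1, WT 2 and Tfam cKO 2. Timm13 had 19.3 and 18.6 FPKM in WT against 25.4 and 21.3 in Tfam cKO, with no overlap also at equal totals (log2 fold change 0.28 ± 0.17, adjusted p = 0.877).

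Timm8b was the most abundant Timm transcript, with 36.2 and 38.6 FPKM in WT against 35.6 and 43.7 in Tfam cKO. Timm10b, which docks the chaperone rings at TIM22, had 13.1 and 16.1 FPKM in WT against 15.2 and 17.0 in Tfam cKO. Timm8a1, the counterpart of the human gene mutated in the deafness-dystonia syndrome, had 14.2 and 9.06 FPKM in WT against 15.1 and 13.7 in Tfam cKO, with WT 2 alone low and a log2 fold change of 0.31 that was 0.01 without WT 2. Each level is a sum over 2 loci of the same name. The locus on chromosome X gave 7.17, 3.89, 7.31 and 6.11 FPKM in WT 1, WT 2, Tfam cKO 1 and Tfam cKO 2, and the locus on chromosome 10 gave 7.06, 5.18, 7.78 and 7.61, a near-equal split whose division of shared reads is uncertain. Timm8a2 was listed at 0 in 3 libraries and at 0.240 FPKM in WT 2.

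Of the TIM22 carrier translocase, the channel gene Timm22 was low, with 3.40 and 3.58 FPKM in WT against 4.51 and 3.70 in Tfam cKO. Both Tfam cKO values were higher as deposited, and with equal totals the groups overlapped. Timm29, its subunit facing TOM, had 7.15 and 7.82 FPKM in WT against 7.74 and 7.29 in Tfam cKO, a log2 difference of 0.01.

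TIM23 held the import gene with the largest difference. Timm23, the channel and presequence receptor of the inner membrane, had 13.6 and 9.13 FPKM in WT against 17.3 and 15.6 in Tfam cKO. The Tfam cKO pair lay wholly above the WT pair, with means of 11.4 ± 3.18 and 16.5 ± 1.15 (SD, n = 2 each) and a log2 difference of 0.52 ± 0.21 (limma adjusted p = 0.771). The spread within WT was wide: without WT 2 the log2 fold change was 0.25, and without WT 1 it was 0.78. Timm50, the receptor that keeps the channel closed until a presequence arrives, had 17.9 and 15.2 FPKM in WT against 19.6 and 19.99 in Tfam cKO (log2 fold change 0.25 ± 0.17, adjusted p = 0.894).

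The channel's partner subunit has 2 forms, whose balance varied between libraries. Timm17b had 7.32 and 7.82 FPKM in WT against 9.87 and 8.55 in Tfam cKO, with no overlap as deposited and an overlap at equal totals. Timm17a, known to be short-lived under mitochondrial stress, had 19.4 and 19.5 FPKM in WT against 17.2 and 26.4 in Tfam cKO, so the Tfam cKO libraries enclosed the WT libraries. The ratio of Timm17a to Timm17b was 2.65 and 2.49 in WT against 1.74 and 3.09 in Tfam cKO. Timm21, which links TIM23 to respiratory chain complexes, had 5.60 and 4.47 FPKM in WT against 4.07 and 4.74 in Tfam cKO.

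In the import motor, which ratchets the chain into the matrix, the scaffold Timm44 and the J-domain gene Dnajc19 lay on different sides of 0. Timm44, the scaffold that holds Hspa9 at the channel, had 10.9 and 8.32 FPKM in WT against 13.9 and 10.5 in Tfam cKO, and the groups overlapped (log2 fold change 0.31, and 0.12 without Tfam cKO 1). Grpel1, its nucleotide exchange factor, had 12.2 and 11.7 FPKM in WT against 14.8 and 13.1 in Tfam cKO, without overlap also at equal totals (log2 fold change 0.20 ± 0.16, adjusted p = 0.915). Dnajc19, a J-domain protein that stimulates the motor, had 9.50 and 11.04 FPKM in WT against 5.62 and 9.07 in Tfam cKO. It was the only import gene whose Tfam cKO pair lay wholly below the WT pair as deposited (log2 fold change -0.46 ± 0.22, limma adjusted p = 0.838). The low value was that of Tfam cKO 1, which rested on about 30 fragments, and without that library the log2 fold change was -0.16. The Dnajc19 gene model also shares 12066 bases with that of Fxr1, at 29.2 to 42.4 FPKM, so reads in the shared stretch are uncertain. Pam16, which holds back the J-domain protein, was the lowest of the tested genes, with 2.74 and 4.17 FPKM in WT against 2.27 and 3.69 in Tfam cKO on 8 to 24 fragments. The log2 fold change of Pam16, -0.17 ± 0.24, changed sign to 0.065 without WT 2 and to 0.092 without Tfam cKO 1.

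The paralog of Dnajc19 outside the chosen genes, Dnajc15, which encodes a J-domain protein of the same kind also known as MCJ, was more abundant. It had 31.9 and 26.3 FPKM in WT against 18.8 and 19.8 in Tfam cKO, with no overlap between the groups (log2 fold change -0.56 ± 0.17, limma adjusted p = 0.626). Both J-domain genes therefore had lower values in the libraries labelled Tfam cKO, without passing the test. The ratio of Dnajc15 to Dnajc19 was 3.36 and 2.38 in WT against 3.34 and 2.18 in Tfam cKO, and it separated the libraries by number rather than by genotype. Grpel2, the paralog of Grpel1, had a log2 difference of 0.003, and the ratio of Grpel1 to Grpel2 was 1.15 and 1.48 in WT against 1.82 and 1.27 in Tfam cKO.

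**Figure D3:**
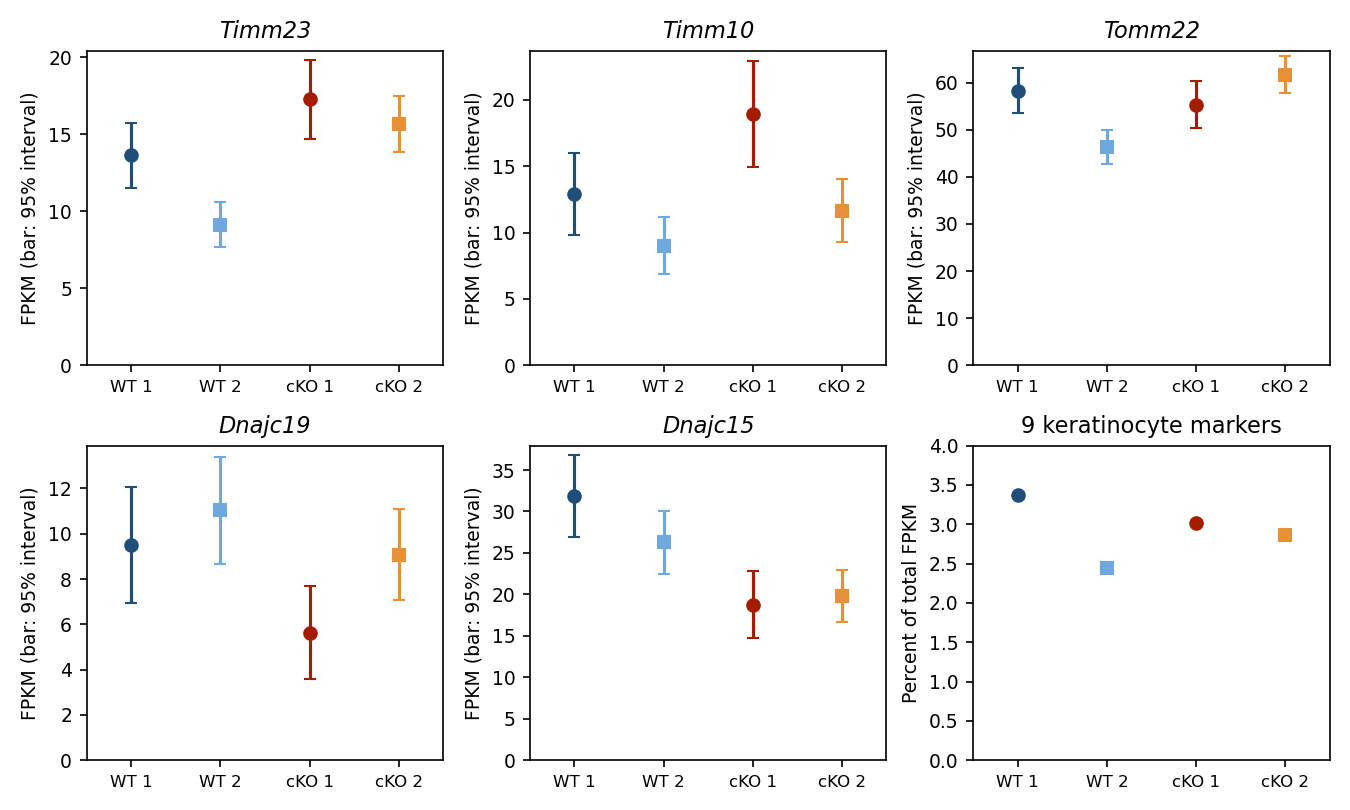
FPKM of Timm23, Timm10, Tomm22, Dnajc19 and Dnajc15 in the 4 libraries, with the 95% interval of each deposited estimate as the bar, and the keratinocyte markers as a percent of all FPKM. The points of the 2 genotypes do not overlap for Timm23, Dnajc19 and Dnajc15, but in each of these genes some of the 95% intervals do. WT 2 stands low in Timm23 and Tomm22, and it has the lowest keratinocyte share, 2.44%.

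Both genes of the MIA40 relay overlapped between the groups. Chchd4, the mouse MIA40 that binds and oxidises its substrates, had 8.14 and 3.81 FPKM in WT against 7.29 and 5.89 in Tfam cKO, so that the WT values enclosed both others. Gfer, the sulfhydryl oxidase that restores it, had 9.65 and 11.4 FPKM in WT against 9.54 and 12.9 in Tfam cKO, with the wider spread in Tfam cKO.

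The Tomm genes, of the outer membrane except for the cytosolic Tomm34, stood on average above the Timm genes of the inner membrane and intermembrane space in every library. The mean log2(FPKM + 1) of the 9 Tomm genes was 4.47 and 4.32 in WT against 4.55 and 4.52 in Tfam cKO, and that of the 14 Timm genes 3.65 and 3.53 in WT against 3.79 and 3.76 in Tfam cKO. The gap between them was 0.818 and 0.797 in WT against 0.760 and 0.757 in Tfam cKO, or 0.783 ± 0.030 (SD) over the 4 libraries. Median levels were 17.9 to 23.9 FPKM for Tomm, 9.05 to 15.2 for Timm, and 7.73 to 8.62 for all genes tested. The gap was narrower in both Tfam cKO libraries. Without Tomm34, left out after the data were seen, it was 0.897 and 0.826 in WT against 0.844 and 0.819 in Tfam cKO, and the groups overlapped. An exact permutation test of 2 libraries against 2 cannot reach a p under 0.05. The median change was 0.17 for Tomm and 0.22 for Timm, and at equal totals 0.05 and 0.12. Without WT 2 the Tomm median was 0.04 and without Tfam cKO 1 it was 0.06. As deposited, 1 of 9 Tomm and 5 of 14 Timm genes had a higher Tfam cKO pair, against 25.4% of all genes. At equal totals 0 Tomm and 3 Timm genes did, against 14.3% of all genes. A lower pair was then held by 1 gene of each, against 19.8% of all genes. The Tomm minus Timm difference in median change was -0.05, -0.02 without Tomm34 and 0.01 with a pseudocount of 5, and it was not tested.

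**Figure D4:**
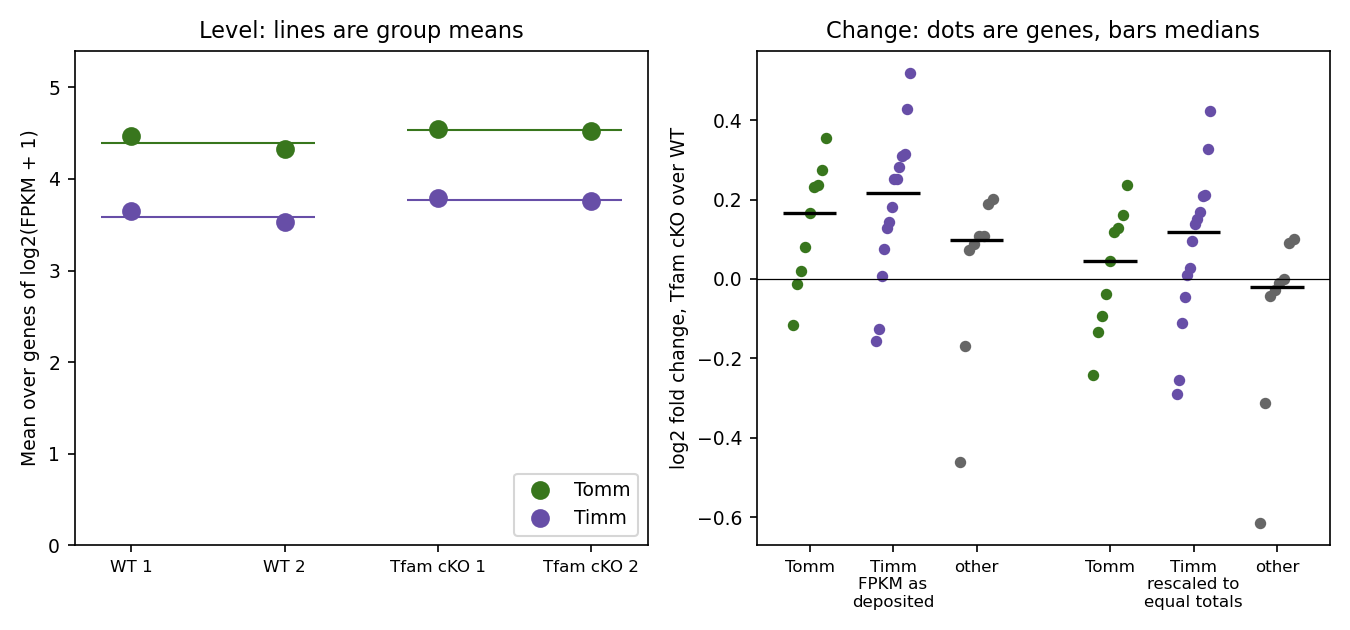
Left, mean log2(FPKM + 1) of the 9 Tomm and 14 Timm genes tested in each of the 4 libraries, with lines at the group means. Tomm lies above Timm in all 4, by 0.757 to 0.818. Right, log2 fold change (Tfam cKO over WT) of each tested Tomm, Timm and other import gene, as deposited and at equal totals. Dots are genes and bars are medians.

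The partners of the machinery were read from lists chosen by function. In the main fit none of their 65 tested genes passed limma's adjusted threshold, with 4 at an unadjusted p under 0.05 (Dnajc15, Cox18, Atf5 and Coa4). That is 6.15%, against 6.21% of all genes. With the replicate number as a block in limma, Atf5 and Coa4 did pass (adjusted p 0.00119 and 0.00456). Among 12 presequence-processing and matrix-import partners, 2 had a higher Tfam cKO pair (Pmpcb and Xpnpep3; 25.4% of all genes) and 3 a lower pair (Dnajc15, Romo1 and Mtx3; 9.75% of all genes). With equal totals 2 of the 12 had a higher and 3 a lower pair, where 14.3% and 19.8% of all genes did. Pmpcb, a subunit of the protease that removes presequences, had a log2 fold change of 0.32 ± 0.16. Hspa9, the Hsp70 at the heart of the motor, was the most abundant of these 12, with a log2 difference of 0.30 ± 0.22, 0.04 without WT 2, and overlapping groups. A further 17 genes were those of twin CX9C proteins, the usual substrates of MIA40, and of its flavoprotein partner Aifm1. Of these, 4 had a higher pair (Coa4, Chchd1, Chchd7 and Ndufa8; 25.4% of all genes) and 1 a lower pair (Chchd10; 9.75%). At equal totals 3 had a higher and 3 a lower pair, against 14.3% and 19.8% of all genes. Coa4, an assembly factor of cytochrome oxidase, had 2.54 and 2.73 FPKM in WT against 5.76 and 5.65 in Tfam cKO, a log2 difference of 0.88 ± 0.17 (limma adjusted p = 0.261) on 20 to 66 fragments. The points of Coa4 did not overlap between the genotypes, and the 95% intervals came close, reaching up to 3.73 FPKM in WT 2 and down to 3.93 in Tfam cKO 1.

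Beside the counts that follow, 25.4% of all genes had a higher pair and 9.75% a lower pair. Among 8 genes of the mitochondrial stress response, the matrix chaperones and proteases had 0 higher and 0 lower pairs. The 1 higher pair was that of Atf5, the transcription factor tied to this response, whose own import fails under stress. It had 9.21 and 8.98 FPKM in WT against 20.8 and 15.6 in Tfam cKO (log2 fold change 0.91 ± 0.18, limma adjusted p = 0.325). The chaperone Hspe1 and the protease Lonp1 had log2 differences of 0.17 ± 0.26 and 0.19 ± 0.18, with overlapping groups. Leaving out WT 1, WT 2, Tfam cKO 1 or Tfam cKO 2 in turn gave Atf5 a log2 fold change of 0.93, 0.90, 0.72 and 1.11. Of 8 inner membrane insertion and assembly genes 2 had a higher pair (Cox18 and Ghitm) and 0 a lower pair. Cox18, an insertase for a mitochondrially encoded oxidase subunit, had a log2 fold change of 0.54 ± 0.20. Of the 7 genes of MICOS, the complex that shapes cristae and touches SAM, 1 had a higher pair (Chchd6, log2 fold change 0.59 ± 0.28, and 0.13 without WT 2) and 1 a lower pair (Apool, -0.17 ± 0.17). Of 8 cytosolic chaperones that deliver precursors 1 had a higher pair (Ubqln2) and 0 a lower pair, Hspa8 having a log2 difference of 0.03. Of 5 genes that clear stalled proteins at the outer membrane, 1 had a higher pair (March5) and 1 a lower pair (Vcp). At equal totals the cytosolic chaperones and the clearance genes had 0 higher pairs. The insertion genes then had 2 higher and 1 lower, and MICOS had 1 higher and 2 lower. Of all genes, 14.3% were higher and 19.8% lower at equal totals. The log2 differences of Ghitm, Chchd3, Ubqln4, Dnaja1, Chchd1 and Chchd2 lay between 0.14 and 0.35.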

How the data were processed

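Sorted Langerhans cells gave total RNA by Trizol extraction, and NEBNext Ultra RNA kits were used for the libraries, per the labels' protocols. Whether strand was kept is not given in the sources used here, nor are the aligner and annotation. The authors deposited FPKM from Cufflinks, per the file headers, with a 95% interval for each value, in 1 table per library. The submitters' processing notes name CASAVA, Cufflinks and mm10, with no version. The tables place genes elsewhere than mm10 does, so no coordinates from the tables are printed.

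Values were joined on symbol and locus and summed over the loci of a symbol. Genes with a mean of at least 1 FPKM (10910) were tested with limma 3.58.1 (R 4.3.3; empirical Bayes moderation with a mean trend) on log2(FPKM + 1), both groups together, with Benjamini-Hochberg adjustment over all of them. Fold changes on this scale understate those of low genes. Fragment numbers come from each interval, taken as 2 standard errors on each side. Whole fragment numbers could be recovered for 74 of 9645 genes, within a tolerance of 0.02, so no count test was run. These gave the relative depths. An interval belongs to 1 library and does not cover the spread between libraries. Not every interval follows counting alone. In WT 1 that of Krt14 gave 2312 fragments at 3538 FPKM, and that of Krt5 gave 119620 at 4598 FPKM. The fragment numbers are therefore approximate. The script was tested on simulated data.

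The members and lists were chosen with earlier results of these data known. By rule, every member is named, and values per library are given for the highest of each role, for an unadjusted p under 0.05, for the 4 largest differences in each direction and for paralogs. Values per library of the other tested members were added after seeing them. Of each partner list, the 2 lowest p-values and the highest level were named; other names among the partners were chosen after their values were seen. Equal totals means FPKM rescaled to the same sum in each library (TPM). The alternatives were quantile normalization, TPM, pseudocounts of 0.1 and 5, no filter on low values, a filter at 5 FPKM, no trend, robust moderation, a replicate block, the highest locus only and leaving out each library. Sequences were read from the RefSeq promoter table of GRCm38.p6, with Python 3.11.15.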

Additional observations from a re-analysis of the deposited data

How the results depend on the processing

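No import gene passed the adjusted threshold under any alternative run, the lowest adjusted p being 0.137 for Timm23 without WT 1. The fold change changed sign under at least 1 alternative in 16 of 31 import genes, and the cause was not tested. Over all genes, the 2 called higher became 1 with a pseudocount of 5, 0 without a filter, 1 with a filter at 5 FPKM and 12 to 63 when 1 library was left out. The 0 called lower became 1 without the trend, 2 with robust moderation and 3 to 40 when 1 library was left out. With the replicate number as a block, 145 genes were called higher and 39 lower over all genes and 0 import genes (lowest adjusted p 0.159, Timm23). The differences between libraries 1 and 2 correlated between the genotypes with r = 0.255 across genes, and Y-linked transcripts were present in number 2 and at 0 in number 1 of both genotypes. The block therefore also takes out the difference in Y-linked transcripts, which both genotypes share. With 2 pairs and no label of a shared litter or day, the numbers were not treated as pairing the samples in the main fit. Of the partners, Atf5 and Coa4 passed limma's threshold with the block (adjusted p 0.00119 and 0.00456).

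Import genes with the Tfam cKO pair above the WT pair numbered 4 with quantile normalization, 4 with TPM and 12 to 18 when 1 library was left out (16.4%, 14.3% and 37.3% to 55.8% of all genes); those with it below numbered 3, 3 and 1 to 8 (17.2%, 19.8% and 19% to 32% of all genes). The median log2 fold change of import genes was 0.046 with quantile normalization, 0.028 with TPM, 0.10 with a pseudocount of 5 and 0.099 to 0.17 when 1 library was left out. The Tomm minus Timm level was 0.81 with TPM, 0.83 and 0.64 with pseudocounts of 0.1 and 5, 0.57 with a filter at 5 FPKM, 0.84 for the highest locus only, 0.73 for medians and, chosen after seeing the data, 0.85 without Tomm34. Without a filter it was 1.023, where Timm8a2, near 0, entered the Timm mean and Tomm20l, at 0 in every library, stayed out of the Tomm mean. The Tomm minus Timm difference in median change ran from -0.099 to -0.023 when 1 library was left out and was 0.0098 with a pseudocount of 5.

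With quantile normalization and TPM the log2 fold change turned to -0.022 and -0.044 for Gfer, -0.095 and -0.12 for Grpel2, -0.058 and -0.097 for Hspa8, -0.012 and -0.029 for Mtx2, -0.014 and -0.011 for Samm50, -0.083 and -0.11 for Timm29, -0.027 and -0.046 for Timm8b, -0.015 and -0.037 for Tomm20 and -0.047 and -0.093 for Tomm40l, and with TPM to -0.0012 for Mtx1. With 1 library left out it ran from -0.00082 to 0.37 for Chchd2, -0.13 to 0.41 for Chchd3, -0.27 to 0.65 for Chchd4, -0.072 to 0.65 for Dnaja1, -0.10 to 0.024 for Epcam, -0.13 to 0.27 for Gfer, -0.19 to 0.19 for Grpel2, -0.24 to 0.29 for Hspa8, -0.18 to 0.51 for Hspe1 and -0.055 to 0.27 for Mtx1. Likewise it ran from -0.43 to 0.092 for Pam16, -0.17 to 0.43 for Timm17a, -0.051 to 0.063 for Timm29, -0.067 to 0.22 for Timm8b, -0.35 to 0.099 for Timm9, -0.012 to 0.17 for Tomm20, -0.14 to 0.12 for Tomm34, -0.0059 to 0.046 for Tomm40l, -0.073 to 0.54 for Tomm5, -0.24 to 0.0063 for Tomm7 and -0.010 to 0.47 for Tomm70a.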
